A study of Mus musculus with 2 samples.

Results

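The genes described here encode the cyclins and kinases that carry a cell from G1 into S phase, together with CDK inhibitors that hold them back. They are the D cyclins Ccnd1, Ccnd2 and Ccnd3, the E cyclins Ccne1 and Ccne2, the kinases Cdk2, Cdk4 and Cdk6, and the inhibitors Cdkn1b and Cdkn2a. These 10 genes were chosen by name out of 26082 deposited genes, and each was found in both libraries with more than 3 counts.

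D cyclins are made in response to growth factors and activate Cdk4 and Cdk6, which begin to phosphorylate the retinoblastoma protein and so release E2F transcription factors. E2F induces the E cyclins, whose complexes with Cdk2 complete that step and start DNA replication. Inhibitors of the INK4 family bind Cdk4 and Cdk6, whereas those of the Cip/Kip family, to which p27 and p21 belong, bind the assembled complexes. In preadipocyte lines, adipogenic medium is known to drive a limited round of division before the cells leave the cell cycle to differentiate.

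Fibro-adipogenic progenitors (FAPs) are stromal cells of skeletal muscle that can become adipocytes. Primary mouse FAPs, genotype WT, were transfected either with a plasmid for TGFBR3, a coreceptor of the TGF-β family, or with the vector alone. The cells had been sorted from hind limb muscle, and the number of animals is not given. Both cultures are labelled as under adipogenic differentiation, in a medium that held insulin (10 μg/ml), dexamethasone (0.25 μM), the phosphodiesterase inhibitor IBMX (0.5 mM) and serum (20%), while the labels give neither the time in it at RNA extraction nor the promoter of the plasmid. Each condition is 1 library, labelled TGFBR3 OE or control, so no difference has a replicate check and none was tested. Against the label, Tgfbr3 stood at an FPKM of 36.9 in the library labelled TGFBR3 OE and 35.1 in the other, a log2 ratio of 0.068 (95% CI 0.039 to 0.097). Every direction below is therefore that of the labels.

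Counts summed to 62321027 and 83779203. FPKM is a count scaled by gene length and by a library total, and ratios are log2 of (FPKM + 1) in the library labelled TGFBR3 OE over that in the library labelled control. Intervals at 95% come from the counts and cover counting error alone, not the spread between cultures. In bulk RNA, fewer cells that express a gene and less of its RNA per cell cannot be told apart. Among 10626 genes at 1 FPKM or more in each library the median ratio was 0.13, so centred ratios, with this shift subtracted, are given too. Ratios also depended on exon GC content. Over 20 bins of 11207 genes, the bin poorest in GC had a median of 0.45 and the richest one of -0.25, and values with this trend or that over exon length removed stand beside the results they change. FAP markers were present, with Pdgfra at 30.5 and 32.6 FPKM and Ly6a at 1013 and 706, whereas Lum, Dpp4 and Pi16 did not exceed 0.27 FPKM in either library. Of the 11 FAP markers 6 were lower and 5 higher in the library labelled TGFBR3 OE, with a median ratio of -0.068. Among the lower were Col3a1 at 95.8 against 199 FPKM (ratio -1.05), Col1a1 at 467 against 870 (-0.89) and Cd34 (-0.30). Ly6a, at 0.52, was among the higher. With the GC trend removed 9 of the 11 were below 0 and the median of the list was -0.25. Of the 17985 genes with more than 3 counts in both libraries 34.5% were below 0, and 55.8% with that trend removed. Macrophage markers summed to 0.91 and 0.54 FPKM over 9 genes, with 5 and 4 of them at 0 counts, and endothelial markers to 2.46 and 2.06 FPKM over 8 genes. The 8 adipocyte markers summed to 57.8 FPKM in the library labelled TGFBR3 OE and 95.3 in the other, with a median ratio of -0.51. They did not move together, as 6 were lower and 2 higher, with ratios from -1.29 to 0.29. With the GC trend removed 7 of the 8 were below 0 and 1 above, and their median was -0.46. The part of either list in the results below was not tested.

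Upstream sequences are shown for Cdk4 and Cdkn2a, both at a lower level in the library labelled TGFBR3 OE. RefSeq start sites on GRCm38.p6, the assembly also called mm10, gave 9 windows for 7 of the members, each from 250 bases before to 50 after a start site, and there was no entry for Ccnd1, Ccnd2 or Ccne2. Only bases outside the gene's annotated exons are printed. In the Cdk4 window, capitals mark the E-box CACGTG, a word that Myc and related factors are known to bind. Cdkn2a has separate start sites for p19ARF and for p16INK4a, which share later exons in different reading frames, and capitals mark E2F words and the GC box GGGCGG, of which the printed bases before the p16INK4a start hold none. The lines run 5′ to 3′ on the gene's strand, for Cdk4 at chr10:127063285-127063533 on the plus strand, for the p19ARF start at chr4:89294654-89294869 and for the p16INK4a start at chr4:89282193-89282442, both on the minus strand.
Cdk4: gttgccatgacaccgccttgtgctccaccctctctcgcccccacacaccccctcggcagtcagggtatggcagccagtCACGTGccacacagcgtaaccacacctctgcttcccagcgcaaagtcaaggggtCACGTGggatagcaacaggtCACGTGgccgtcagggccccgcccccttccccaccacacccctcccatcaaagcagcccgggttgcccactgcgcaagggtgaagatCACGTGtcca
Cdkn2a p19ARF start: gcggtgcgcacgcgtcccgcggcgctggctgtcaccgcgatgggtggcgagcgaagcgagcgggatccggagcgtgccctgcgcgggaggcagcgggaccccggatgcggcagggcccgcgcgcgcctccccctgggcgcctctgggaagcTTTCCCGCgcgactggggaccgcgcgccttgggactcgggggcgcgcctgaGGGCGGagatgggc
Cdkn2a p16INK4a start: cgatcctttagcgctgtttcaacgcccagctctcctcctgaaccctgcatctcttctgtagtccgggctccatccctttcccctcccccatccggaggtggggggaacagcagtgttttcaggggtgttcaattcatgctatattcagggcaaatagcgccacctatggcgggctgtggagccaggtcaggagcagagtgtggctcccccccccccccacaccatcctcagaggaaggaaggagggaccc

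Cdk4 held 4 E-boxes, at -172, -118, -98 and -11 from the start site, and Cdk6 held 1, at -220, whereas 7.15% of 32851 promoter windows held any on either strand. This word was chosen after the sequences were seen. E2F words, searched on both strands as TTTCGCGC, TTTGGCGC, TTTCCCGC and TTTGCCGC, occurred once in the window of Cdk2 and once in that of the p19ARF start, against 2.26% of all windows. GC boxes lay in 8 of the 9 windows and in 35.7% of all. Neither the cyclic AMP response element TGACGTCA (1.79% of all windows) nor the AP-1 word TGANTCA (7.81%) was found in these 9 windows. Such matches describe the letters and say nothing on binding.

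**Figure D1:**
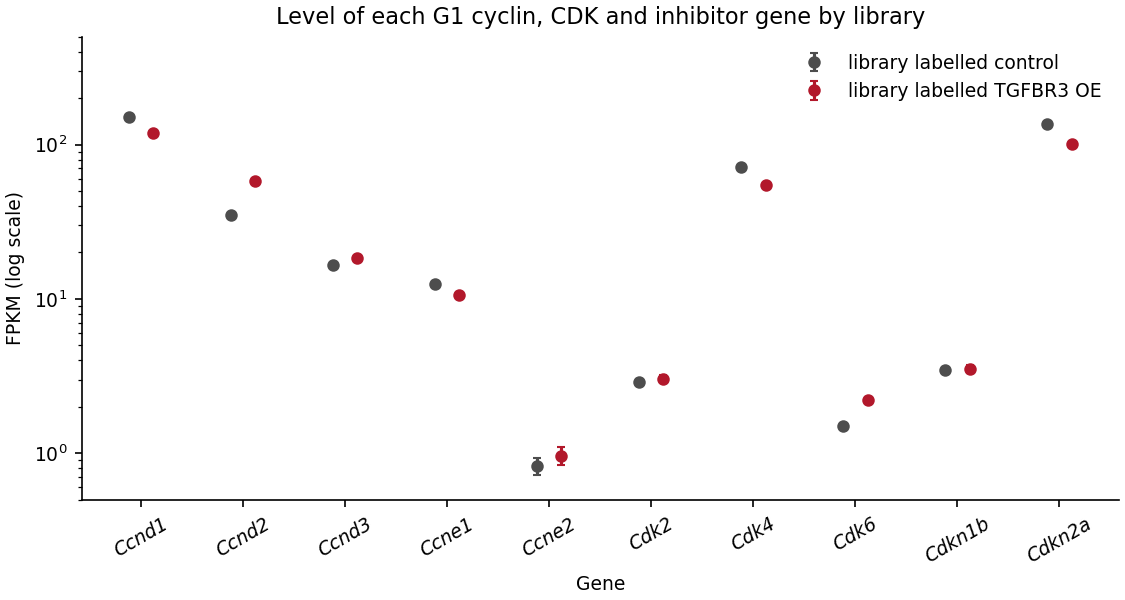
FPKM on a log scale (y axis) of each of the 10 genes (x axis) in the library labelled control (grey) and the library labelled TGFBR3 OE (red), with 95% Poisson intervals from the counts. Ccnd1 is the highest in each library, at 151 and 120, and Ccnd2 and Cdk4 change places.

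The order of the levels was nearly shared by the libraries. In the library labelled control it ran Ccnd1, Cdkn2a, Cdk4, Ccnd2, Ccnd3, Ccne1, Cdkn1b, Cdk2, Cdk6 and Ccne2, from 151 down to 0.82 FPKM. In the library labelled TGFBR3 OE, from 120 down to 0.96 FPKM, Ccnd2 stood above Cdk4 in the third place, at 58.0 (95% CI 57.5 to 58.6) against 54.6 (53.6 to 55.6), and the other genes kept their places. Counting intervals of neighbours in the order did not overlap in either library. The plot of levels by library shows this exchange between a cyclin and a kinase.

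None of the 10 genes differed 2-fold, where 1.89% of all 26082 genes did. At 1.5-fold 1 member, Ccnd2, was higher, beside 6.46% of all genes. The ratio was below 0 for 4 members (Ccnd1, Ccne1, Cdk4 and Cdkn2a) and above 0 for 6, while 34.5% of the 17985 genes with more than 3 counts in both libraries were below 0 and 63.5% above. Counting intervals lay off 0 for 7 of the 10, close to the 71.7% of those 17985 genes. After centring 7 members were below 0, against 55.9% of those genes. Members' median ratio was 0.033, and that of the same 17985 genes was 0.082.

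**Figure D2:**
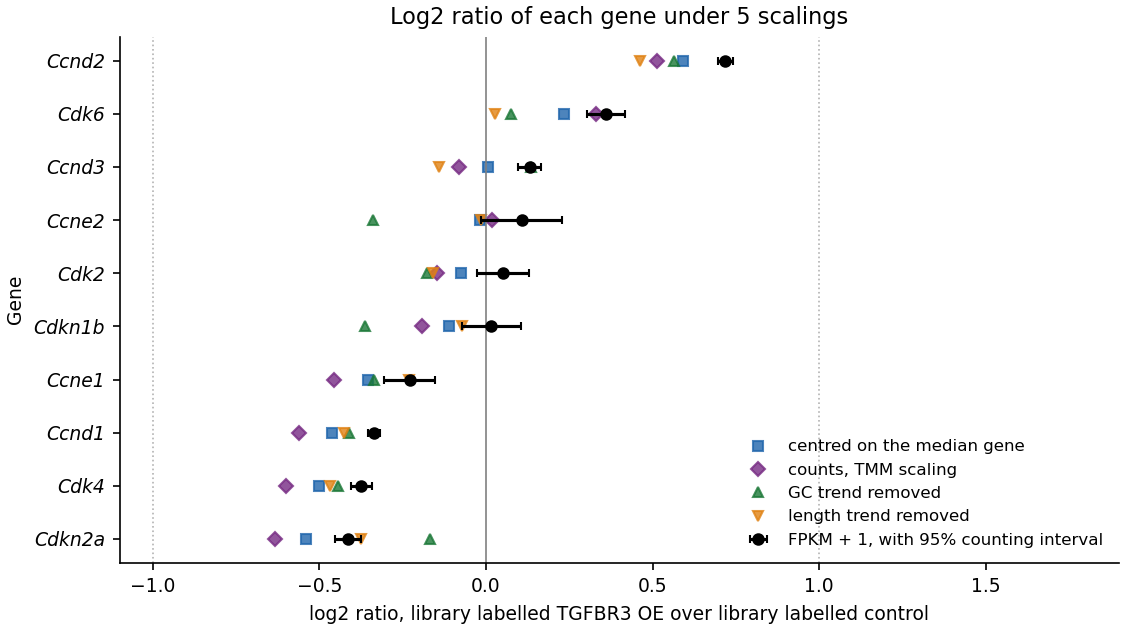
Log2 ratio (x axis) of each gene (y axis) as computed from FPKM + 1 with its 95% counting interval (black), and under 4 other scalings. Ccnd2 stays above 0 and Ccnd1, Cdk4, Ccne1 and Cdkn2a stay below 0 at every point, while Ccnd3, Ccne2, Cdk2 and Cdkn1b cross 0.

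Among the D cyclins, Ccnd1 was lower and Ccnd2 higher. Ccnd1 (ENSMUSG00000070348, mm10 chr7:144929931-144939925, minus strand), the D cyclin most closely tied to mitogen and ERK signaling, had 38202 counts in the library labelled TGFBR3 OE and 65848 in the other. Its FPKM was 120 against 151, a ratio of -0.34 (95% CI -0.36 to -0.32) and of -0.46 when centred. Ccnd2 (ENSMUSG00000000184, mm10 chr6:127125162-127152193, minus strand), whose product activates the same kinases and in some cells accumulates on cell cycle exit, had 37051 counts against 30317. Its FPKM was 58.0 against 34.9, and the ratio of 0.72 (95% CI 0.70 to 0.74) was 0.59 when centred. A larger ratio was seen in 7.65% of the 11213 genes whose FPKM averaged 1 or more, and a smaller one than that of Ccnd1 in 12.9%. With the trend over GC content removed, Ccnd1 was at -0.41 and Ccnd2 at 0.56.

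Ccnd3 (ENSMUSG00000034165, mm10 chr17:47505051-47599691, plus strand), a D cyclin with a role in terminal differentiation of several lineages, was at 18.3 against 16.65 FPKM, from 10926 and 13507 counts. Its ratio of 0.13 (95% CI 0.10 to 0.17) was the nearest to 0 among the D cyclins, was 0.0057 when centred, and turned negative under TMM scaling, DESeq2 size factors and removal of the length trend. A processed pseudogene, Ccnd3-ps, shares 3.21% of the 31-base words of Ccnd3 and had 0 counts in both libraries.

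Summed over the family, D cyclin FPKM as deposited was nearly level, at 196 in the library labelled TGFBR3 OE and 203 in the other, while its make-up differed. The log2 ratio of these sums, -0.050, depends on the library scaling, and the median shift of 0.13 exceeds it in size. Ccnd1 gave 61.0% of the sum against 74.6%, Ccnd2 gave 29.6% against 17.2%, and Ccnd3 gave 9.36% against 8.21%. As a share of the family's counts, which also weigh transcript length, Ccnd2 made up 43.0% (95% CI 42.7 to 43.3, exact Clopper-Pearson) against 27.6% (27.4 to 27.9). Within a library such proportions do not depend on the library total. Ccnd2 stood at 0.49 of Ccnd1 in the library labelled TGFBR3 OE and at 0.23 in the other by FPKM, a 2.11-fold difference (95% CI 2.07 to 2.15 from counts). In log2 units the gap between their ratios was 1.06, and it was 0.97 with the GC trend and 0.89 with the length trend removed.

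**Figure D3:**
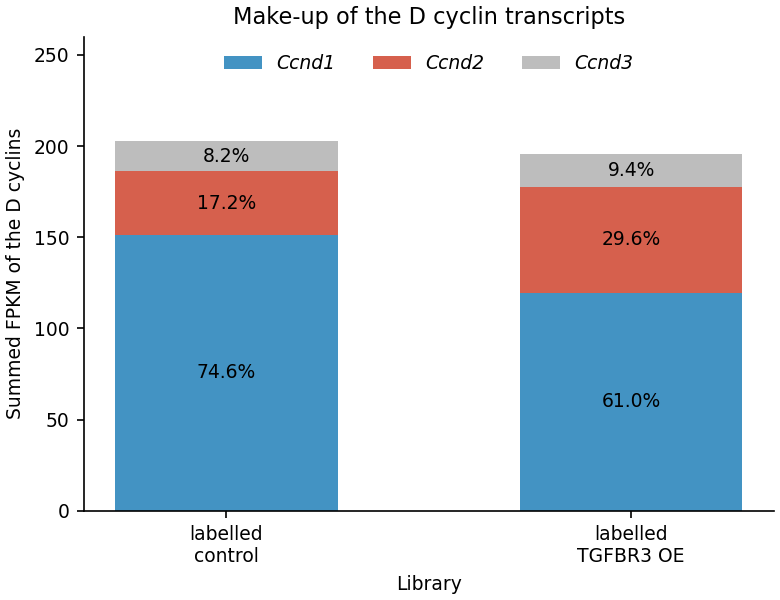
Summed FPKM of Ccnd1 (blue), Ccnd2 (red) and Ccnd3 (grey) on the y axis in each library on the x axis, with each gene's percent of the sum printed in its block. The totals are close, at 203 and 196, and the Ccnd2 block goes from 17.2% to 29.6%.

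Of the partner kinases, Cdk4 was lower and Cdk6 higher. Cdk4 (ENSMUSG00000006728, mm10 chr10:127063534-127067920, plus strand) is the main D cyclin kinase of these cells by level, with 54.6 FPKM in the library labelled TGFBR3 OE and 71.05 in the other (12031 and 21331 counts). Its ratio was -0.37 (95% CI -0.41 to -0.34), -0.50 when centred and -0.44 with the GC trend removed. Exons of Cdk4 share 641 bases with Tspan31 on the opposite strand, which was at 92.0 against 71.2 FPKM, and the sources do not say whether reads were counted by strand. Cdk6 (ENSMUSG00000040274, mm10 chr5:3341485-3531008, plus strand), a kinase with the same partners and targets, was at 2.21 FPKM against 1.5, from 2105 and 1941 counts. Its ratio of 0.36 (95% CI 0.30 to 0.42) was 0.23 when centred, and only 0.076 with the GC trend and 0.027 with the length trend removed. Its exons sum to 13989 bases, the longest of the members.

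Cdk4 exceeded Cdk6 by 24.7-fold in the library labelled TGFBR3 OE and by 47.4-fold in the other. From counts, the ratio of these ratios was 0.52 (95% CI 0.49 to 0.56). The gap of -0.74 between their log2 ratios shrank to -0.52 with the GC trend and to -0.49 with the length trend removed. Ccnd1 and Cdk4, by contrast, were lower to a like degree. Ccnd1 was at 2.19 times the Cdk4 level in the library labelled TGFBR3 OE and at 2.13 times in the other, a ratio of ratios of 1.03 (95% CI 1.002 to 1.06). D cyclin transcripts together stood at 3.45 per Cdk4 and Cdk6 transcript by FPKM, against 2.80.

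Of the E cyclins and their kinase, Ccne1 was lower, while Ccne2 and Cdk2 had counting intervals that held 0. Ccne1 (ENSMUSG00000002068, mm10 chr7:38097984-38107534, minus strand), an E2F target that activates Cdk2 at the start of S phase, was at 10.6 against 12.6 FPKM, from 1911 and 3093 counts. This gave a ratio of -0.23 (95% CI -0.31 to -0.15) and -0.36 when centred. Ccne2 (ENSMUSG00000028212, mm10 chr4:11191351-11204779, plus strand), its paralog with the same partner, was the lowest member, at 0.96 against 0.82 FPKM. With 232 and 267 counts its ratio was 0.11 (95% CI -0.015 to 0.23), so no difference was detectable at this depth, and the sign turned when centred (-0.019) and with the GC trend removed (-0.34). Cdk2 (ENSMUSG00000025358, mm10 chr10:128697939-128705031, minus strand) was at 3.04 against 2.90 FPKM, from 1284 and 1668 counts, with a ratio of 0.051 (95% CI -0.028 to 0.13) that was -0.075 when centred. Ccne1 was 11.0 times Ccne2 in the library labelled TGFBR3 OE and 15.3 times in the other, whereas with the GC trend removed both genes stood at -0.34. Exons of Ccne2 share 609 bases with Ints8 on the opposite strand, which was at 4.29 against 2.85 FPKM.

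Of the inhibitors among the members, Cdkn2a was lower and Cdkn1b showed no detectable difference. Cdkn2a (ENSMUSG00000044303, mm10 chr4:89274471-89294653, minus strand) encodes p16INK4a, which binds Cdk4 and Cdk6, and p19ARF, which stabilizes p53 by binding Mdm2. It was the second most abundant member, at 101 FPKM against 135, from 8065 and 14661 counts. Deposited values are per gene, so the transcripts from the 2 start sites shown above cannot be told apart. Its ratio of -0.41 (95% CI -0.45 to -0.37), the lowest of the members, was -0.54 when centred and -0.17 with the GC trend removed. At 59.5% its exons had the highest GC content of the members, in the top one of the 20 bins.

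Cdkn1b (ENSMUSG00000003031, mm10 chr6:134920401-134925513, plus strand) encodes p27, an inhibitor of Cdk2 complexes that is set largely by protein turnover. It was at 3.51 FPKM in the library labelled TGFBR3 OE and 3.46 in the other (1085 and 1459 counts). The ratio of 0.016 (95% CI -0.073 to 0.11) was -0.11 when centred and -0.36 with the GC trend removed. Relative to Ccnd1 within each library, Cdkn1b was 1.28-fold higher in the library labelled TGFBR3 OE (95% CI 1.18 to 1.39 from counts), a gap of 0.35 in log2 units that was 0.046 with the GC trend removed.

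**Figure D4:**
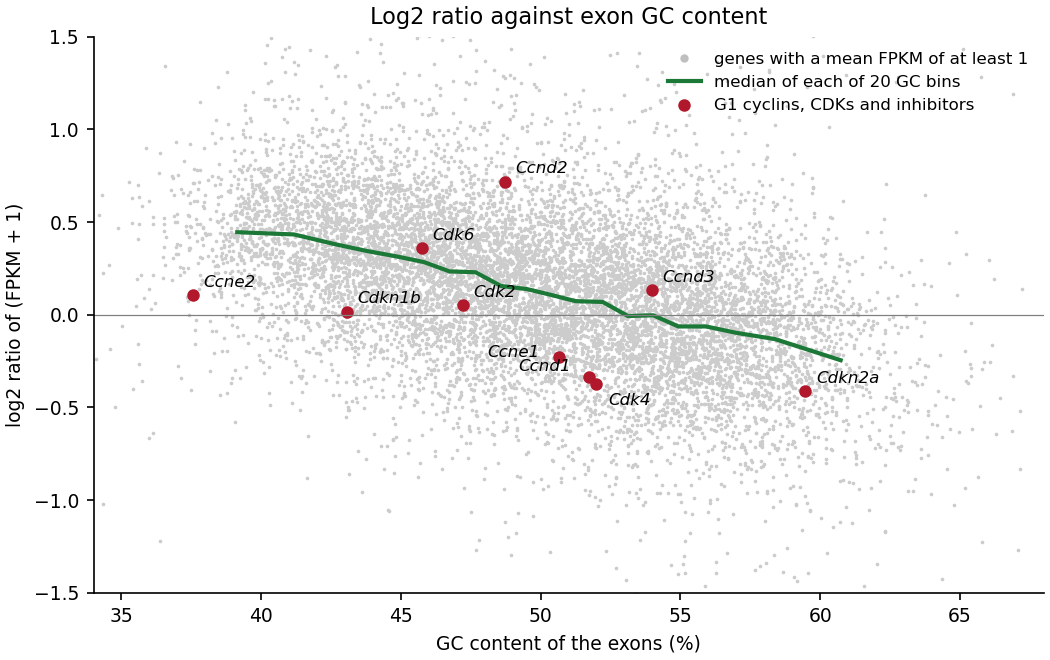
Log2 ratio (y axis) against the GC content of the exons (x axis) for 11018 of 11207 genes whose FPKM averaged 1 or more (grey), the median of each of 20 bins (green) and the members (red), with 189 genes beyond the axes not drawn. Ccnd2 and Ccnd3 lie above the green line, Cdk6 close to it, and the other members below it.

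Exon GC content of the members ran from 37.6% in Ccne2 to 59.5% in Cdkn2a, with a median of 49.7% against 50.0% over the 11213 genes whose FPKM averaged 1 or more. With the trend removed, 7 members were below 0 and 3 above (Ccnd2, Ccnd3 and Cdk6), beside 55.8% below 0 among the 17985 genes. In the plot of ratio against GC content, Cdkn2a and Ccne2 sit at opposite ends. Ccne2 and Cdkn1b moved most when the trend was taken out, from 0.11 to -0.34 and from 0.016 to -0.36. The part of GC content in these ratios was not tested.

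Other CDK inhibitors were taken from a list of 5. Cdkn1a, which encodes p21, a Cip/Kip inhibitor and p53 target, was far above Cdkn1b, at 258 FPKM in the library labelled TGFBR3 OE and 157 in the other (62128 and 51608 counts). Its ratio was 0.71 (95% CI 0.69 to 0.73), 0.58 when centred and 0.64 with the GC trend removed. It made up 97.2% and 95.8% of the summed FPKM of Cdkn1a, Cdkn1b and Cdkn1c. Against Ccnd1 in the same library, Cdkn1a stood at 2.16 and 1.04, a 2.08-fold difference (95% CI 2.04 to 2.11), in a pair chosen after the values were seen. The other members of this list had ratios of 0.19 (Cdkn1c), 0.023 (Cdkn2b), -0.35 (Cdkn2c) and -0.46 (Cdkn2d). Thus 3 of 5 were above 0, where 63.5% of the 17985 genes were, and none differed 2-fold. Cdkn2b, the p15INK4b gene beside Cdkn2a, was at 59.5 against 58.6 FPKM, and relative to Cdkn2a it was 1.36-fold higher (95% CI 1.30 to 1.42). This pair too was chosen after the values were seen. Its gap of 0.44 in log2 units was 0.25 with the GC trend removed.

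Downstream of the kinases, pocket proteins, E2F and DP factors had a median ratio of 0.26, with 8 of 13 genes above 0 and none 2-fold. Of the 17985 genes with more than 3 counts in both libraries 63.5% were above 0. With the GC trend removed the median of the list was -0.019. Then 8 of the 13 were below 0, beside 55.8% of the 17985 genes. Rb1, the retinoblastoma gene, was at 2.60 against 1.52 FPKM, a ratio of 0.51 (0.081 with the GC trend removed). E2f6, a repressor E2F, was at 11.25 against 7.02 FPKM, a ratio of 0.61 (0.38 with the GC trend removed). E2f3, E2f5 and Rbl1 had ratios of 0.39, 0.32 and 0.30, which were 0.31, 0.091 and -0.076 with the GC trend removed. E2f1, the classical activator, was at 15.4 against 16.9 FPKM, and was named after its values were seen. Its ratio was -0.13, and it was -0.26 when centred and -0.00022 with the GC trend removed. S phase genes that E2F induces had a median of 0.082, with 8 of 14 above 0 (63.5% of the 17985 genes) and none 2-fold. They were led by the replication licensing genes Mcm4 (0.46) and Mcm6 (0.45), followed by Pcna (0.37) and Cdt1 (0.31). Their median was -0.045 when centred. With the GC trend removed Mcm4, Mcm6, Pcna and Cdt1 were at 0.18, 0.22, 0.026 and 0.41. Cyclins and the kinase of later phases had a median of 0.00, from -0.28 in Ccnb2 to 0.23 in Ccnb1, with Cdk1 at -0.17, Ccna2 at 0.12 and Ccnf at 0.00. With the GC trend removed all 5 were below 0, where 55.8% of the 17985 genes were.

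**Figure D5:**
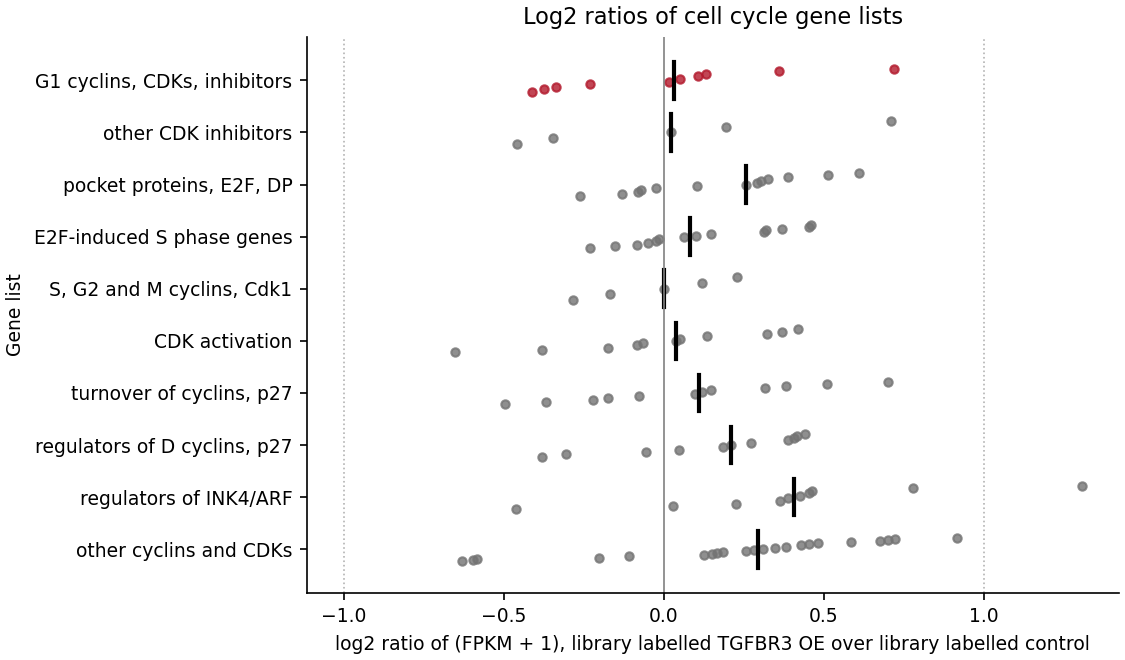
Log2 ratio (x axis) of each gene in 10 lists (y axis), with the members in red, other lists in grey and a black bar at each median. List medians lie between 0.00 and 0.41, and only Mdm2, at 1.31, passes a 2-fold line (dotted).

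Genes that switch CDKs on or off had a median ratio of 0.039, with 6 of 11 above 0, and 2 of 11 with the GC trend removed. Of the 17985 genes 63.5% were above 0, and 55.8% were below 0 with that trend removed. Cks1b, which helps the Skp2 ligase take p27 for degradation, was the lowest, at 17.5 against 28.1 FPKM (ratio -0.65, 95% CI -0.74 to -0.56), and its paralog Cks2 was at -0.38. Cdc25a, a phosphatase that activates Cdk2, was at 0.42, and the Cdk7 partners Ccnh and Mnat1 at 0.37 and 0.32, values that were -0.076 and -0.12 with the GC trend removed. Among 12 genes for the turnover of cyclins and p27, 7 were above 0, beside the same 63.5%, and the median was 0.11. With the GC trend removed the median was -0.051 and 5 were above 0. Cul1, the scaffold of SCF ligases, had a ratio of 0.70 (0.39 with the GC trend removed), Cul3 0.51 (0.066), Usp2, a deubiquitinase of cyclin D1, 0.38, Ddb1 -0.37 and Fbxo4, an F-box protein linked to cyclin D1, -0.49.

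Transcriptional regulators known to act on the D cyclin or p27 genes were above 0 in 8 of 11, with a median of 0.21. Of the 17985 genes 63.5% were above 0. The median of these regulators was 0.083 when centred. With the GC trend removed it was 0.14 and 9 were above 0, beside 7925 of the 17985 genes. Ctnnb1 (0.44), Fosl1 (0.42), Myc (0.41) and Foxo1 (0.39) were higher and Foxo4 (-0.38) was lower. Myc was at 22.8 against 17.0 FPKM. Among 10 regulators of the INK4/ARF locus and partners of p19ARF the median was 0.41, and 9 were above 0, where 63.5% of the 17985 genes were. With the GC trend removed the median was 0.096 and 7 were above 0, again beside 7925 of the 17985 genes. Bmi1, a Polycomb repressor of Cdkn2a, was at 6.65 against 3.46 FPKM (ratio 0.78, 95% CI 0.69 to 0.86, and 0.40 with the GC trend removed). Its partners Rnf2 and Ring1 had ratios of 0.46 and -0.46, and Ezh2 one of 0.46. With the GC trend removed these were 0.019, -0.33 and 0.11. Mdm2, the p53 ligase that p19ARF binds, was the single gene of these lists past 2-fold, at 1.31, and at 0.99 with the GC trend removed it was not.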

How the data were processed

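RNA of 2 cultures of FAPs, 1 per condition, was sequenced as paired reads of 150 nt after poly(A) selection and dUTP marking of the second strand. The authors deposited raw counts per gene and FPKM values rounded to 2 decimals. Their paper names STAR and FeatureCounts with mm10, whereas the submitters' processing notes list cutadapt 1.9, HISAT2 2.2.1, StringTie 2.1.6, DESeq2 and edgeR, and the annotation release is not given in the sources used here. Deposited FPKM lay within 1% of count over exon length and a single total for 98.0% of 11063 and 98.2% of 10629 genes.

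Ratios were log2 of (FPKM + 1). Intervals are exact Clopper-Pearson intervals of a gene's share of its counts, Poisson intervals for levels and exact conditional intervals for ratios of ratios. The paper names a KC-Digital Stranded mRNA kit and does not say whether reads were collapsed by molecular identifier. Reads not so collapsed are not independent molecules, so these intervals cover counting error only. A count of 3 was the floor. Replicate tests in edgeR or DESeq2 could not be run on 1 library per condition, and only their scaling factors were used (edgeR 4.0.16, DESeq2 1.42.0, R 4.3.3; otherwise Python 3.11.15, scipy 1.17.1 and pandas 2.3.3). The design had planned FPKM as the measure, with counts where present. Trends were removed by subtracting bin medians over 20 bins. Positions, exon lengths and GC content came from GENCODE M21 on mm10, which held 99.7% of the identifiers, and promoters from RefSeq. The calculations were tested on simulated counts.

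Members and lists were chosen with earlier results of these data known. Named were all members, Tgfbr3, genes overlapping a member, and up to 5 genes of each list with the largest absolute ratio. The value of 1 gene that this rule names is not reported here. No gene was named for a likeness to a member, since a pair of libraries gives a single ratio per gene. In the muscle list, 3 of 8 genes were not analysed here, and the others summed to 1.65 and 1.30 FPKM. The 6 pericyte and smooth muscle markers summed to 10.1 and 9.60 FPKM. Alternatives were a pseudocount of 0.1, plain ratios, centring, library-scaled counts, TMM and DESeq2 scaling, removal of either trend, a 1.5-fold threshold, and a minimum mean FPKM of 1.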

Additional observations from a re-analysis of the deposited data

How the results depend on the processing

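No paired analysis was possible because each condition is 1 library and no label pairs them. None of the members passed 2-fold under the other scalings, and 1 did at a 1.5-fold threshold. Of 80 member values under 8 other scalings or corrections, 34 stayed within the counting interval. Ccnd1, Ccnd2, Ccne1, Cdk4, Cdk6 and Cdkn2a kept their sign throughout, with ratios from -0.59 to -0.34, 0.46 to 0.74, -0.49 to -0.23, -0.63 to -0.38, 0.027 to 0.56 and -0.67 to -0.17. Ccnd3 turned to -0.081 under TMM scaling, -0.11 under DESeq2 size factors and -0.14 with the length trend removed, and the cause was not tested. The members' median ranged from -0.26 to 0.044. Of all genes 2-fold apart, 74.8% were higher in the library labelled TGFBR3 OE, and 58.5% were after centring. With 1 library per condition, depth limits counting error only, and the spread between cultures is unknown.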

Other observations

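Cyclins and CDKs with roles outside the step from G1 to S phase, many of them in transcription, were examined as a list of 22. Their median log2 ratio was 0.30, with 17 above 0, none 2-fold apart, 5 at least 1.5-fold higher and 2 at least 1.5-fold lower in the library labelled TGFBR3 OE. Of the 11213 genes averaging 1 FPKM or more, 7079 were above 0, 1488 were at least 1.5-fold higher and 550 at least 1.5-fold lower. The median of those genes was 0.14. Ccng1, which encodes cyclin G1, a known p53 target, was the highest of the 22, at 176 FPKM against 92.5. Its ratio of 0.92 (95% CI 0.90 to 0.94) was 0.48 with the GC trend removed. Genes of transcriptional CDK complexes followed, with Cdk12 at 0.72, Ccnt1 at 0.70 and Ccnk, the partner of Cdk12, at 0.68. With the GC trend removed these were 0.38, 0.36 and 0.68. Cdk5, a kinase best known from neurons, was the lowest, at 10.95 against 17.5 FPKM (ratio -0.63). The list's median was 0.00 with the GC trend removed, when 11 genes lay above 0 and 11 below. Of the 11213 genes, 5600 then lay above 0 and 5600 below.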
